A study of Mus musculus with 6 samples.

Results

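The 33 genes described here encode pore-forming (alpha) subunits of voltage-gated potassium (Kv) channels, including the electrically silent ones. They were taken by gene name from a table of read counts for 53715 genes, and all 33 were in it. A filter on low counts left 16721 genes for testing, 31 of the 33 among them. Kcnq1 and Kcnv2 did not pass the filter and are described by their counts only. The poly(A) RNA came from the piriform cortex, a forebrain area that receives input from the olfactory bulb, of Gad2-Cre mice. These animals carry Cre recombinase under control of Gad2, the gene of a GABA-synthesising enzyme, so a Cre-dependent (DIO) virus is active in Gad2-expressing cells. Both groups were Gad2-Cre mice with an adeno-associated virus injected into the piriform cortex of 1 side. The Caspase3 group (3 libraries) received AAV-DIO-Caspase3, which encodes an apoptosis-executing protease, and the GFP group (3 libraries) received AAV-DIO-GFP. The sources used here give no age, sex, sampled hemisphere or interval after injection.

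Kv channels open when the membrane depolarises and let potassium leave the cell, which ends the action potential and sets how soon the next can follow. Each channel is a ring of 4 alpha subunits around a shared pore. Subunits of the Kv1, Kv2, Kv3, Kv4, Kv7 and ether-a-go-go (EAG, ERG and ELK) families form channels of their own kind. The silent subunits, Kcnf1, Kcng1 to Kcng4, Kcns1 to Kcns3, Kcnv1 and Kcnv2, form no working channel alone and join Kv2 subunits, whose gating they alter. In cortex, Kv1 channels sit mainly on axons, Kv4 channels carry a fast-inactivating dendritic current, Kv3 channels allow fast spiking, and Kv7 channels carry the M current that restrains repeated firing.

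The feature that these genes share is the stretch that codes for the potassium selectivity filter. A script found the codons of the filter's glycine, aromatic residue and glycine in the coding sequence (GENCODE M21, GRCm38) of all 33 members. The middle codon encoded tyrosine in 26 members and phenylalanine in the 7 ether-a-go-go members. Below, 30 coding bases are shown for the called gene and for 1 or more members of each family on which the values turn, with the 3 filter codons in capitals.
Kcns3 (silent): atgaccacagtgGGCTATGGAgacacccac
Kcnf1 (silent): atgaccacagtgGGCTATGGTgacatctac
Kcnb2 (Kv2): atgaccactgtgGGCTACGGTgacatttac
Kcna2 (Kv1): atgacaactgtaGGCTATGGAgacatggtt
Kcna5 (Kv1): atgaccactgtaGGCTACGGGgacatgagg
Kcnc1 (Kv3): atgacgacactgGGCTATGGAgacatgtat
Kcnc4 (Kv3): atgacaacgcttGGCTATGGGgacatgtat
Kcnd2 (Kv4): atgacaacactgGGGTATGGCgacatggta
Kcnq3 (Kv7): ctggccaccattGGTTATGGAgacaagaca
Kcnh3 (ELK): ctcaccagtgtgGGCTTCGGCaacgtgtcc
Kcnh7 (ERG): ctaaccagtgtaGGATTTGGAaatgtgtct
The silent subunits Kcns3 and Kcnf1 were among the members with tyrosine, as was the conducting Kv2 subunit Kcnb2. The transcripts were also searched for exact 50-base words shared with other genes, which bears on how reads are assigned. For 25 of the 33 members no 50-base word occurred in another gene, and the largest share was 2.81% of the 50-base words of Kcna5, all 79 of them also found in Kcna6.

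Counts in the libraries totalled 20424581 to 24227361 in the Caspase3 group and 22101015 to 26268377 in the GFP group, and 3 counts amounted to 0.118 to 0.142 CPM, a count scaled to the size of its library. Gad2, the gene that drives Cre, stood at 26.7, 38.5 and 38.0 CPM in the Caspase3 libraries and at 92.4, 118 and 104 CPM in the GFP libraries. It fell by 1.604 ± 0.15 (SE) on the log2 scale (adjusted p = 0.00371, edgeR's quasi-likelihood test with Benjamini-Hochberg adjustment over all 16721 genes), so the label of each library and its Gad2 level go together. The libraries differed in more than the group. GFP replicate 3 had the highest summed CPM of 14 markers of striatal projection neurons (2031 CPM, against 528 to 717 in the other 5 libraries), and Caspase3 replicate 1 the highest sum of 15 microglial markers (1148 CPM, against 440 to 823). The labels do not say that libraries of a group came from separate mice, and the p-values therefore reflect only how much these libraries vary, part of which may be technical. In bulk tissue, fewer cells of a type and less RNA per cell cannot be told apart.

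The members ranged widely in level. Levels of different genes are compared here as deposited FPKM (fragments per kilobase of gene length, scaled to library size), averaged over the 6 libraries. Among the 33 members, 2 silent subunits stood highest, Kcnf1 (Kv5.1) at 39.0 FPKM and Kcnv1 (Kv8.1) at 37.3 FPKM. The Kv1 subunit Kcna2 followed at 36.6 FPKM, then the Kv4 subunit Kcnd2 at 29.2, the Kv7 subunit Kcnq3 at 27.7 and the Kv1 subunit Kcna1 at 27.4 FPKM. These neighbours in the order were close: the mean of Kcnf1 was 36.5 ± 2.99 FPKM in the Caspase3 group and 41.6 ± 3.82 in the GFP group, and that of Kcnv1 32.9 ± 8.66 and 41.7 ± 6.94 (SD, n = 3 each). The highest ether-a-go-go member was Kcnh7 (Kv11.3) at 18.1 FPKM, and the highest Kv3 member Kcnc4 (Kv3.4) at 17.7 FPKM, next to Kcnc2 at 17.6. Kcnb2, the only Kv2 member of the set, stood at 2.31 FPKM. The lowest members were Kcng3 at 0.700, Kcns3 at 0.522, Kcng4 at 0.445, Kcnh8 at 0.175, Kcng2 at 0.171, Kcnq1 at 0.0875 and Kcnv2 at 0.00794 FPKM. Their summed counts ran from 141 (Caspase3) and 187 (GFP) for Kcng3 down to 4 and 2 for Kcnv2.

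**Figure D1:**
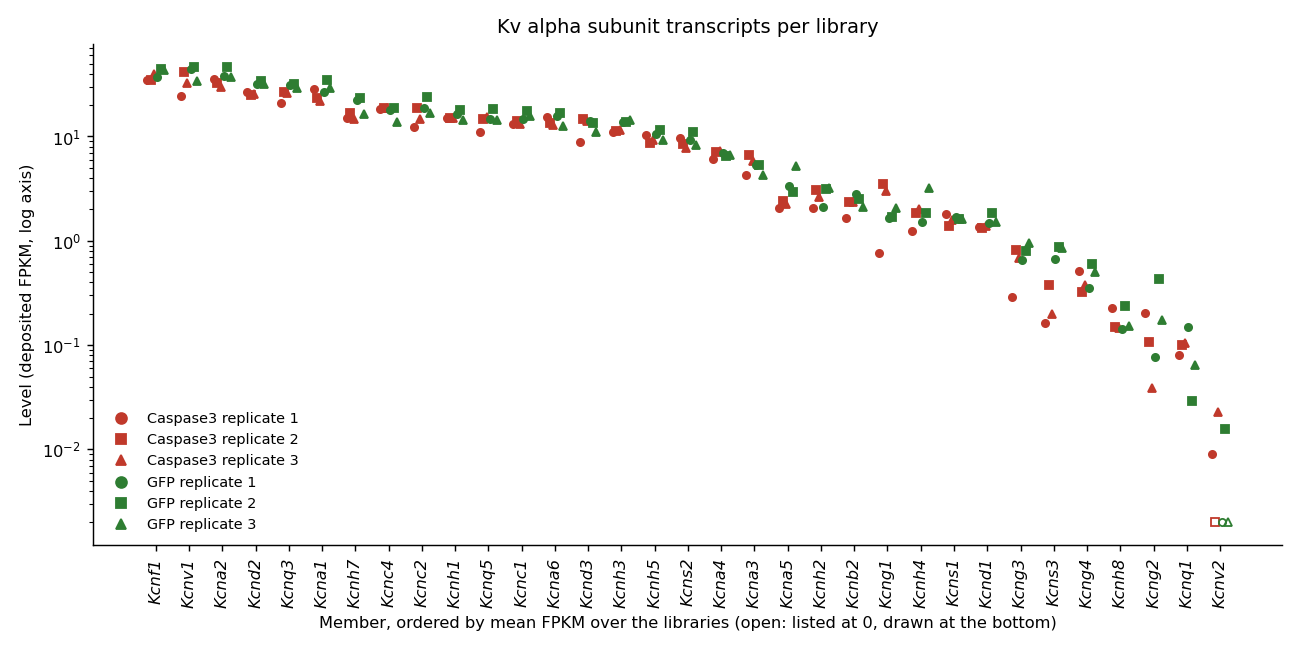
Deposited FPKM on a log axis for the 33 Kv alpha subunit genes, ordered by their mean over the 6 libraries, with a red point for each Caspase3 library, a green point for each GFP library, and open points at the bottom for libraries listed at 0. The order runs from Kcnf1 at 39.0 FPKM to Kcnv2 at 0.00794 FPKM.

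The families' shares of the summed member FPKM were close between the groups. Kv1 members made up 24.4 ± 2.62% of it in the Caspase3 libraries and 24.4 ± 0.710% in the GFP libraries, and the silent subunits 23.6 ± 1.61% and 23.7 ± 0.0349% (SD, n = 3 each). The ether-a-go-go members held 15.8 ± 0.591% and 16.0 ± 0.341%, and the Kv3 members 13.4 ± 0.399% and 12.7 ± 0.628%. The Kv4 share was 11.2 ± 0.286% and 11.4 ± 0.447%, the Kv7 share 10.9 ± 1.17% and 11.2 ± 0.214%, and Kcnb2 as the Kv2 member 0.601 ± 0.0885% and 0.600 ± 0.0842%. For each family the means of the groups differed by less than the sum of their SDs.

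The comparison of Caspase3 with GFP addresses what accompanies caspase 3 delivery aimed at eliminating Gad2-expressing neurons of this cortex. Among the 31 tested members, 1 fell, the silent subunit Kcns3, and none rose. At an unadjusted p under 0.05, 8 members were lower (Kcns3, Kcnd2, Kcnh3, Kcna5, Kcnh7, Kcnc1, Kcnq3 and Kcna2) and 0 higher. DESeq2 called Kcna5 and Kcnd2 lower beside Kcns3, and no member higher. It called 3.02% of all genes tested, counting both directions, and most of those calls were higher in the Caspase3 group. Over all genes tested, 0.114% were called lower and 1.53% higher, 1.64% in all (edgeR, adjusted p under 0.05), and 3.91% were lower at an unadjusted p under 0.05. The log2 fold change was negative for 27 of the 31 members, against 50.2% of all genes tested, and the members' median was -0.23, against -0.00 for all genes. In 8 members every Caspase3 library lay below every GFP library, and in 1, Kcnc4, every Caspase3 library lay above. Over all genes tested, 6.29% had non-overlapping groups with Caspase3 lower and 8.96% with Caspase3 higher.

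**Figure D2:**
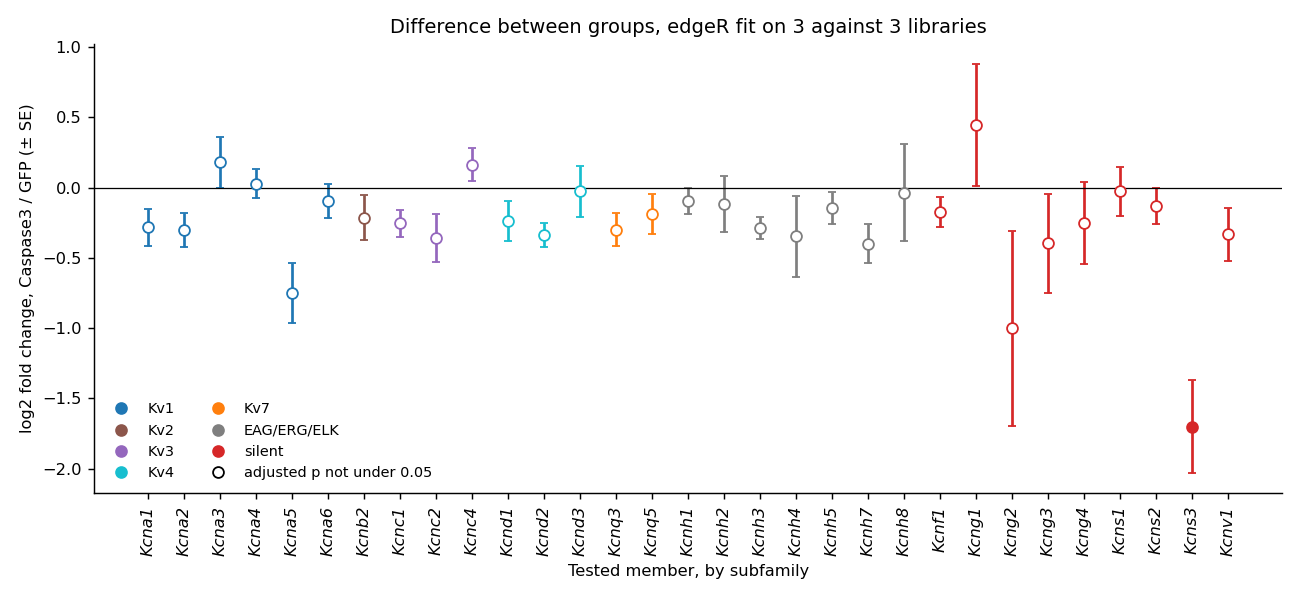
Log2 fold change (Caspase3 over GFP) with its SE from the edgeR fit for the 31 tested members, coloured by family, with the called member filled and the others open. Kcns3 lies at -1.70, and 27 of 31 members lie below 0.

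The members' summed CPM was 2469, 2716 and 2592 in the Caspase3 libraries and 3045, 3362 and 2831 in the GFP libraries, so the groups did not overlap. Summed CPM of 15 pan-neuronal markers was 9777, 11222 and 10332 in the Caspase3 libraries and 12177, 13705 and 10410 in the GFP libraries, and the groups overlapped. Relative to those markers, the member sum was 25.2%, 24.2% and 25.1% in the Caspase3 libraries and 25.0%, 24.5% and 27.2% in the GFP libraries, and these ranges overlapped. When the counts were scaled to the pan-neuronal markers, a setting chosen after seeing the data that moves the median of all genes to 0.20, 17 of the 31 members were negative and the member median was -0.02. Kcns3 remained the 1 called member under that scaling (log2 fold change -1.52, adjusted p = 0.0432). The part of neuronal content in the lower member values was not tested. Among single libraries, GFP replicate 2 was the highest of the 6 libraries for 19 of 31 members, and Caspase3 replicate 1 the lowest for 14. Without GFP replicate 2 the median was -0.13, with 26 of 32 tested members negative, and without Caspase3 replicate 1 it was -0.18, with 25 of 32.

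**Figure D3:**
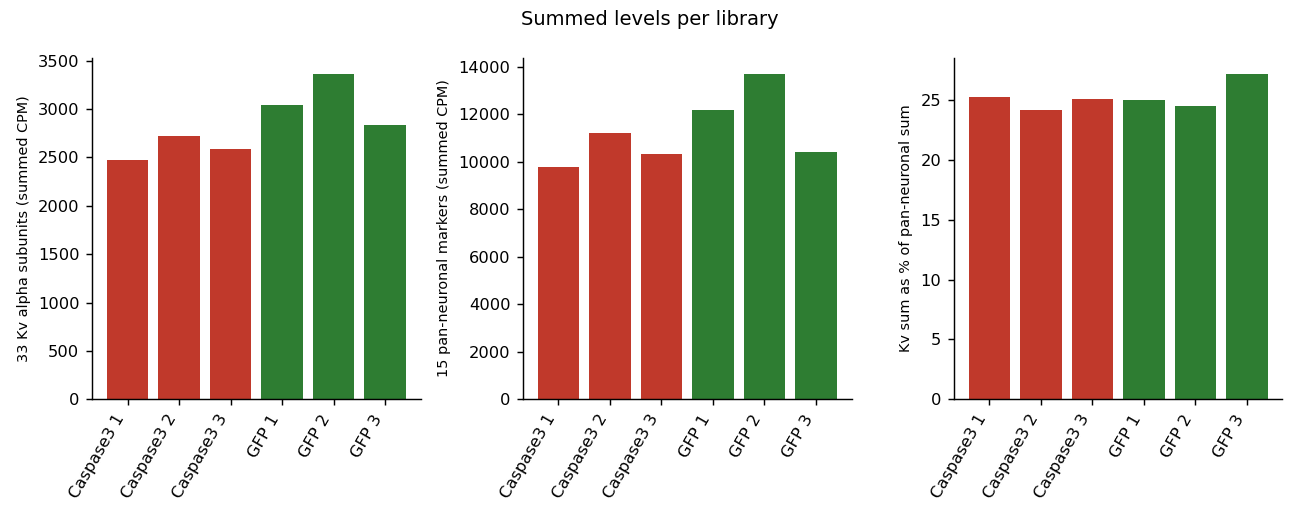
Bars from 0 for each library: the summed CPM of the 33 members (left), the summed CPM of the 15 pan-neuronal markers (middle) and the member sum as a percent of the marker sum (right), with Caspase3 in red and GFP in green. The member sums of the groups do not overlap (at most 2716 against at least 2831 CPM), whereas the percentages do (24.2% to 25.2% against 24.5% to 27.2%).

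The silent subunits held the called member. Kcns3 (Kv9.3, ENSMUSG00000043673, chromosome 12, 11090202 to 11151056, minus strand, GRCm38) encodes a modifier of Kv2 channels that, in neocortex, is known from parvalbumin-positive interneurons. Its counts were 11, 26 and 16 in the Caspase3 libraries and 46, 69 and 62 in the GFP libraries, or 0.521, 1.18 and 0.631 against 2.14, 2.73 and 2.72 CPM. The highest Caspase3 library lay below the lowest GFP library, with means of 0.778 ± 0.354 and 2.53 ± 0.337 CPM (SD, n = 3 each). Kcns3 fell by 1.70 ± 0.33 (SE) on the log2 scale, 3.25-fold, with adjusted p = 0.0397 in edgeR's quasi-likelihood test. The gene is sparse, at 53 counts over the Caspase3 libraries and 177 over the GFP libraries, and the call was close to the threshold. It was lost when any library other than Caspase3 replicate 2 was left out, with adjusted p = 0.0802 without Caspase3 replicate 1, 0.158 without Caspase3 replicate 3, and 0.0735, 0.167 and 0.11 without GFP replicates 1, 2 and 3. Across these fits the log2 fold change stayed between -2.12 and -1.49. DESeq2 gave adjusted p = 0.00142 and limma-voom 0.0372.

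**Figure D4:**
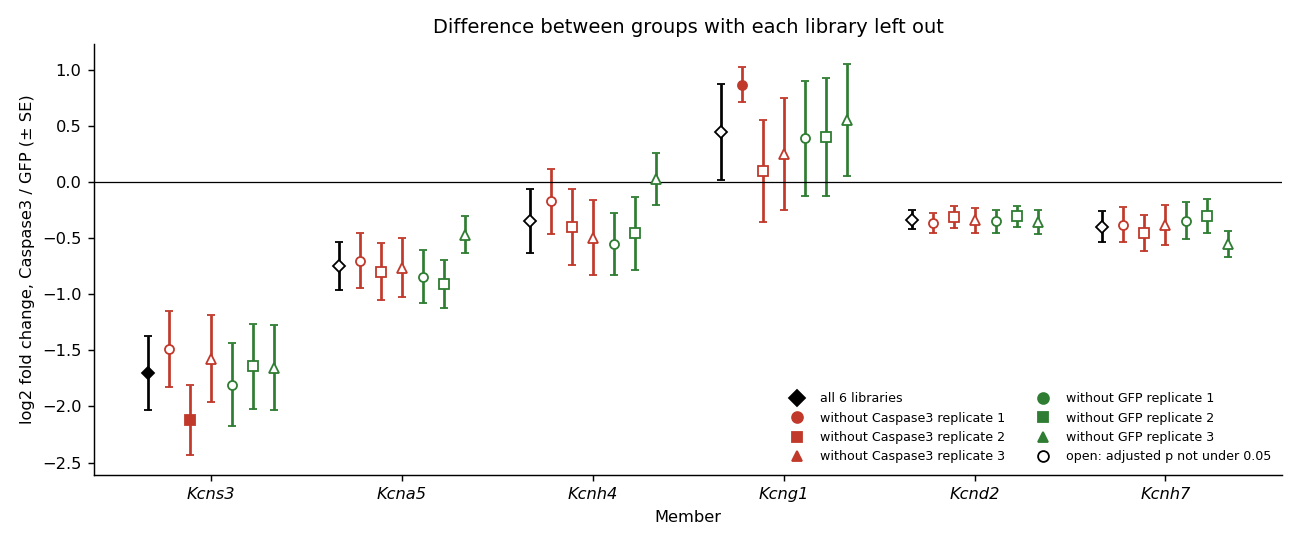
Log2 fold change (Caspase3 over GFP) with its SE for Kcns3, Kcna5, Kcnh4, Kcng1, Kcnd2 and Kcnh7, with all 6 libraries (black) and with each library left out in turn (red and green); filled symbols have an adjusted p under 0.05. Kcns3 stays between -2.12 and -1.49, and Kcng1 moves from 0.45 to 0.87 without Caspase3 replicate 1.

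Interneuron markers are given beside the fall of Kcns3. Pvalb, which encodes parvalbumin and was chosen after its values were seen, stood at 4.596, 4.548 and 1.657 CPM in the Caspase3 libraries and at 6.850, 10.97 and 11.73 CPM in the GFP libraries (log2 fold change -1.46 ± 0.36, adjusted p = 0.112 in edgeR and 0.000538 in DESeq2). All 5 tested fast-spiking interneuron markers had negative log2 fold changes with a median of -1.04, although edgeR called none, 2 were lower at an unadjusted p under 0.05 and 1 by DESeq2, and their summed CPM overlapped (19.6 to 55.0 against 41.7 to 144). Of 16 GABAergic neuron markers, edgeR called 1, Gad2 itself, and DESeq2 called 5 lower. In edgeR, 10 were lower at an unadjusted p under 0.05. Summed CPM of these markers did not overlap (511 to 797 against 887 to 1234). GFP replicate 3, which stands apart by its striatal markers, gave the highest sum of both lists, and the sums of GFP replicates 1 and 2 were 41.7 and 88.4 CPM for the fast-spiking list and 887 and 1137 CPM for the GABAergic list. Without that library the log2 fold change of Tac1, which the striatal list also holds, moved from -3.00 to -1.19, and that of the GABA transporter gene Slc32a1 from -1.42 to -0.94, both named after their values were seen. Pvalb was at -1.33, Gad2 at -1.62 and Kcns3 at -1.65 without it. The part of these cells in the Kcns3 difference was not tested.

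A sequence before an internal start of Kcns3, the called gene, is shown. It lies inside the annotated span of the gene (11090202 to 11151056), and 0 of its bases are exonic. RefSeq (GRCm38.p6) gave promoters for 22 of the 33 members, and the 250 bases before 1 of the starts of Kcns3, chr12:11150374-11150623, are printed 5′ to 3′ on the minus strand. Capitals mark GC boxes, read here on the strand opposite to GGGCGG.
Kcns3 promoter: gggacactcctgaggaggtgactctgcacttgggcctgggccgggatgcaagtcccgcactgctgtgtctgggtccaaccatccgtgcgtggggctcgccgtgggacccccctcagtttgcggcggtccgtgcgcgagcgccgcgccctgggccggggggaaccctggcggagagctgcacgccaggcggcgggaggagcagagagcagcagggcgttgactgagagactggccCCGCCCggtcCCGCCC
The stretch is 72.8% G or C and holds 23 CpG and 2 GC boxes. The 250 bases before the other RefSeq start of Kcns3, chr12:11150843-11151092, are not printed because 105 of them are exonic; they are 47.2% G or C and hold 8 CpG and 1 GC box. In windows of 300 bases (250 before the start and 50 after), GGGCGG on either strand occurred in 17 of 27 member promoters (63.0%) and in 35.7% of 32851 promoters. The TATA box TATAAA occurred in 0 of 27 member windows and in 13.6% of all. The cAMP-response element TGACGTCA occurred in 0 of 27 and in 1.79% of all. An interferon-stimulated response element (ISRE-like) motif occurred in 3 of 27, in windows of Kcnc2 and Kcnd2, and in 3.44% of all. The Kcnc2 windows with this motif overlapped and held the same site, so 2 of 22 member genes had it. The 250 bases before the start were also richer in G and C in the members, with a median of 62.8% against 52.4%. A G- and C-rich motif has more chances to match in such sequence.

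The other silent subunits did not pass the test. Kcnf1 stood at 169.9, 167 and 193 CPM in the Caspase3 libraries and at 179, 211 and 208 CPM in the GFP libraries, at a log2 fold change of -0.18 ± 0.11 (adjusted p = 0.62, edgeR). The groups overlapped. Kcnv1 had 114, 192 and 151 CPM against 206, 212 and 156 CPM, and a log2 fold change of -0.33 ± 0.19 (adjusted p = 0.597). Its lowest value, in Caspase3 replicate 1, lay well under the others. Kcng1 (Kv6.1) stood at 3.51, 15.9 and 13.8 CPM in the Caspase3 libraries and 7.46, 7.60 and 9.31 CPM in the GFP libraries, so the Caspase3 group held both its lowest and its highest values. Its log2 fold change was 0.45 ± 0.43 (adjusted p = 0.77) and became 0.87, called higher at adjusted p = 0.0299, without Caspase3 replicate 1. For Kcns1, Kcns2, Kcng3, Kcng4 and Kcng2 the log2 fold changes were -0.03, -0.13, -0.40, -0.25 and -1.002, with adjusted p from 0.675 to 0.976. Kcng2 rested on 23 counts in the Caspase3 libraries and 49 in the GFP libraries, 32 of them in GFP replicate 2. Kcnv2 had 1, 0 and 3 counts against 0, 2 and 0. Over the family, 8 of 9 tested members were negative, and the median was -0.25.

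Kcnb2 (Kv2.2, ENSMUSG00000092083, chromosome 1, 15287254 to 15723750), a delayed rectifier subunit and a partner of the silent subunits, stood at 25.8, 35.8 and 36.1 CPM in the Caspase3 libraries and 43.1, 38.2 and 31.9 CPM in the GFP libraries. The groups overlapped, and the log2 fold change was -0.21 ± 0.16 (adjusted p = 0.7, edgeR). The difference between Kcns3 and Kcnb2 in their response was not tested.

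Of the Kv1 subunits, none passed the test, and 4 of 6 had negative log2 fold changes with a median of -0.19. Kcna2 (Kv1.2, ENSMUSG00000040724, chromosome 3, 107101146 to 107115005), the main axonal subunit by level here, stood at 429.5, 389.7 and 359 CPM in the Caspase3 libraries and at 451, 551 and 449 CPM in the GFP libraries. The groups did not overlap, though the highest Caspase3 value came close to the GFP group. The log2 fold change was -0.30 ± 0.12 (adjusted p = 0.418, edgeR). Kcna1, its partner in axonal channels, had 139, 113 and 105 CPM against 128, 164 and 140.5 CPM, and a log2 fold change of -0.28 ± 0.13 (adjusted p = 0.504). Caspase3 replicate 1 lay within the GFP range. Kcna5 (Kv1.5, ENSMUSG00000045534, chromosome 6, 126532551 to 126535412), known also from heart muscle, had 6.07, 6.96 and 6.51 CPM against 9.51, 8.43 and 14.9 CPM. The groups did not overlap, and the highest value was that of GFP replicate 3. The log2 fold change of -0.75 ± 0.22 (adjusted p = 0.198 in edgeR, 0.0409 in DESeq2) became -0.47 (adjusted p = 0.358) without GFP replicate 3, the library with the highest striatal marker sum. The part of striatal tissue in the value was not tested. Kcna6 stood at -0.09 ± 0.12 and the fast-inactivating subunit Kcna4 at 0.03 ± 0.10 on the log2 scale (adjusted p = 0.839 and 0.943).

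Kcna3 (Kv1.3) is the Kv1 subunit known from T cells and microglia. It had 8.197, 12.69 and 11.20 CPM in the Caspase3 libraries and 10.21, 9.979 and 8.126 CPM in the GFP libraries, with overlapping groups and a log2 fold change of 0.18 ± 0.18 (adjusted p = 0.781, edgeR). Over the same libraries 10 of 15 microglial markers rose, as did 5 of the 7 lymphocyte (T and NK cell) markers tested (median log2 fold changes 0.89 and 2.99), and their summed CPM did not overlap (811 to 1148 against 440 to 530, and 6.86 to 16.6 against 1.31 to 5.18). The part of these cells in the Kcna3 values was not tested.

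Among the Kv3 subunits, which serve fast repolarisation, 2 of 3 were negative and none passed the test. Kcnc1 (Kv3.1, ENSMUSG00000058975, chromosome 7, 46396497 to 46438704) stood at 126, 132 and 124 CPM in the Caspase3 libraries and at 139, 166 and 150.1 CPM in the GFP libraries. The groups did not overlap, and the log2 fold change was -0.25 ± 0.10 (adjusted p = 0.37, edgeR). Kcnc2, a subunit of fast-spiking interneurons among other cells, had 90.3, 135 and 107 CPM against 134, 171 and 120.3 CPM. The groups overlapped, at a log2 fold change of -0.36 ± 0.17 (adjusted p = 0.504). Kcnc4 (ENSMUSG00000027895, chromosome 3, 107438303 to 107459552), a fast-inactivating member, had nearly equal values in the Caspase3 group, 69.1, 68.8 and 69.4 CPM, just above the GFP group at 65.4, 68.6 and 51.0 CPM. Its log2 fold change was 0.16 ± 0.12 (adjusted p = 0.685).

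All 3 Kv4 subunits were negative, and none passed the test. Kcnd2 (Kv4.2, ENSMUSG00000060882, chromosome 6, 21215503 to 21729805), the main A-type subunit by level here, stood at 139.5, 129 and 132 CPM in the Caspase3 libraries and at 165, 175 and 165 CPM in the GFP libraries. Both groups were tight, and the gap between them was wider than either group's range. Kcnd2 had a log2 fold change of -0.33 ± 0.09 (adjusted p = 0.129, edgeR). DESeq2 called it (adjusted p = 0.0296), while over all alternatives its adjusted p reached 0.669, with the pan-neuronal scaling. Kcnd3 had 86.3, 141 and 136 CPM against 136, 128 and 107 CPM (log2 fold change -0.03 ± 0.18, adjusted p = 0.975), and its sign turned without Caspase3 replicate 1 (0.17). The X-linked Kcnd1 had 7.34, 7.09 and 7.42 CPM against 7.88, 9.78 and 8.04 CPM, with groups that did not overlap and a log2 fold change of -0.23 ± 0.14 (adjusted p = 0.623).

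**Figure D5:**
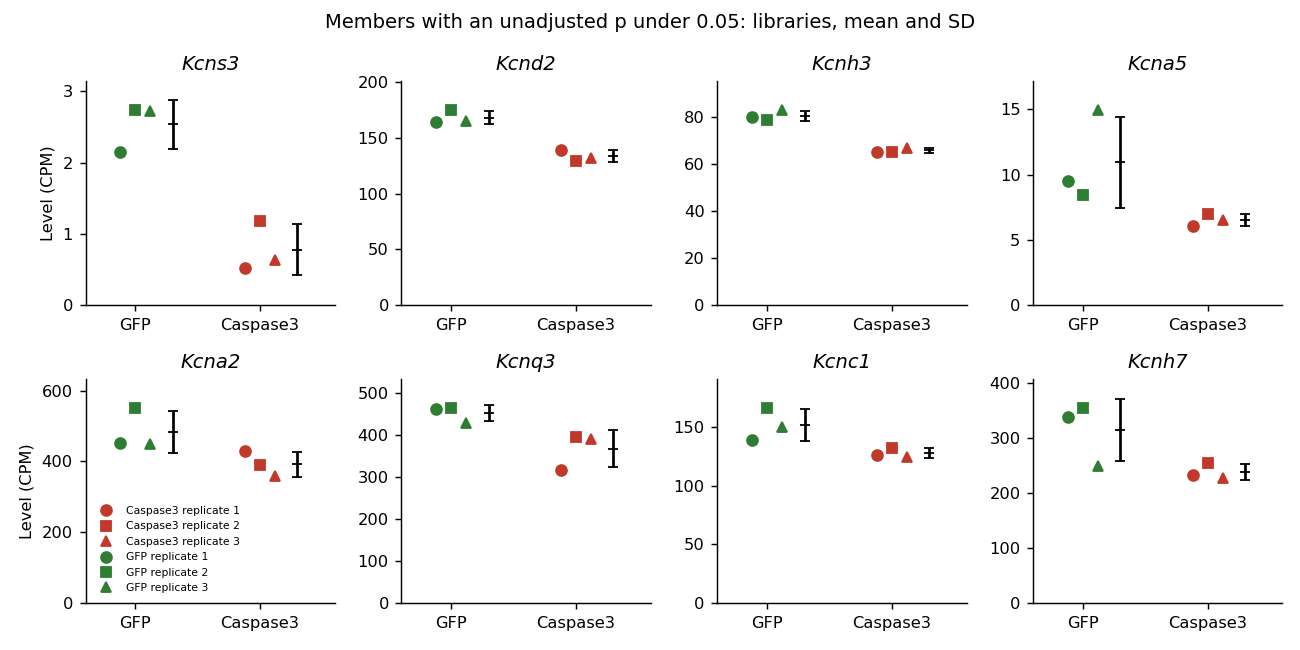
CPM in each library for the 8 members with an unadjusted p under 0.05, with 1 symbol for each replicate and the mean and SD of the group (n = 3) beside it. The groups do not overlap for any of them except Kcnh7, where GFP replicate 3 at 249.5 CPM lies below Caspase3 replicate 2 at 255.3 CPM.

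Of the Kv7 subunits, Kcnq3 (Kv7.3, ENSMUSG00000056258, chromosome 15, 65986387 to 66286642), a constituent of M channels, stood at 315, 395 and 390.2 CPM in the Caspase3 libraries and at 461, 463 and 428 CPM in the GFP libraries. The groups did not overlap, with Caspase3 replicate 1 the lowest. Kcnq3 had a log2 fold change of -0.30 ± 0.12 (adjusted p = 0.39, edgeR). Kcnq5, which can join Kcnq3 in M channels, was at -0.19 ± 0.14 (adjusted p = 0.71). Kcnq1, known from heart and epithelia, had 7, 9 and 11 counts against 13, 3 and 6 counts. It shares 121 exon bases with the antisense transcript Kcnq1ot1, which had 11123 counts over the 6 libraries against 49 for Kcnq1. No source used here states whether counting used strand, so reads of the pair cannot be told apart.

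All 7 ether-a-go-go members were negative, with a median of -0.15, and none passed the test. The ERG subunit Kcnh7 (ENSMUSG00000059742, chromosome 2, 62693414 to 63184287) stood at 232, 255 and 228 CPM in the Caspase3 libraries and at 339, 355 and 249.5 CPM in the GFP libraries. Only GFP replicate 3 fell within the Caspase3 range. Kcnh7 had a log2 fold change of -0.40 ± 0.14 (adjusted p = 0.318, edgeR) and passed, at -0.52 (adjusted p = 0.0457), without Caspase3 replicate 1 and GFP replicate 3 together. Kcnh7 overlaps 696 exon bases of Gca on the opposite strand (3414 counts), so its counts could hold reads of that gene. The ELK subunit Kcnh3 (Kv12.2, ENSMUSG00000037579, chromosome 15, 99224861 to 99242817), a forebrain channel, had tight groups, 65.3, 65.3 and 67.0 CPM against 80.0, 78.7 and 82.8 CPM. The lowest GFP library lay above the highest Caspase3 library by more than either group's range. Kcnh3 had a log2 fold change of -0.29 ± 0.08 (adjusted p = 0.159, edgeR). The EAG subunits Kcnh1 and Kcnh5 were at -0.09 ± 0.10 and -0.15 ± 0.11, the ERG subunit Kcnh2 at -0.12 ± 0.20 and the ELK subunits Kcnh4 and Kcnh8 at -0.35 ± 0.29 and -0.03 ± 0.34 (adjusted p from 0.718 to 0.985). Kcnh4 depended on GFP replicate 3, its highest library at 12.6 CPM, and stood at 0.03 without it.

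Proteins that act on Kv channels and the other potassium channels were described from the same fit. In 5 lists, 56 of the 66 genes in the table were tested, and 0 were called in either direction by edgeR. At an unadjusted p under 0.05, 8 were lower and 1 higher, and DESeq2 called 1 lower. Negative log2 fold changes were found for 42 of the 56, with a median of -0.12, against -0.23 for the Kv alpha subunits; that difference was not tested. The auxiliary subunits had 10 of 12 negative (median -0.15), the localisation proteins 9 of 11 (-0.10), the calcium- and sodium-activated channels 7 of 10 (-0.26), the inward rectifiers 11 of 13 (-0.13) and the tandem-pore leak channels 5 of 10 (0.03). The most abundant auxiliary subunit, Kcnab2, a Kv1 beta subunit, stood at 304, 245 and 246 CPM in the Caspase3 libraries and at 260, 339 and 293 CPM in the GFP libraries (log2 fold change -0.17 ± 0.13, adjusted p = 0.729). The most abundant members of the other lists were Dlg2, a synaptic scaffold (-0.12), Kcnma1, the pore of large-conductance calcium-activated channels (-0.22), Kcnj10, an astrocytic inward rectifier (-0.04), and Kcnk2, a mechanosensitive leak channel (0.11), with adjusted p from 0.62 to 0.952.

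The following 4 auxiliary genes, each with an unadjusted p under 0.05, were chosen after their values were seen. Lgi1, a secreted protein that modifies Kv1 inactivation and is mutated in a familial epilepsy, had 99.0, 102 and 103 CPM in the Caspase3 libraries and 130.1, 138 and 126 CPM in the GFP libraries. Its groups did not overlap, and its log2 fold change was -0.37 ± 0.08 (adjusted p = 0.0789 in edgeR, 0.014 in DESeq2). Kcnab1, another Kv1 beta subunit, had 14.1, 29.4 and 20.4 CPM against 28.7, 40.7 and 99.2 CPM, with GFP replicate 3 far above the rest. Its log2 fold change of -1.40 (adjusted p = 0.245) became -0.71 without that library. Kcnip2, a Kv4 partner, had 9.95, 18.7 and 15.1 CPM against 17.1, 17.4 and 48.0 CPM, and its log2 fold change of -0.91 (adjusted p = 0.461) became -0.25 without GFP replicate 3. Kcnip1, a Kv4 partner expressed in interneurons, was at -0.74 (adjusted p = 0.298), and at -0.74 also without that library.

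Markers of other cells were read from the same fit, with edgeR calls unless another tool is named. None of 15 cortical excitatory neuron markers was called (2 higher at an unadjusted p under 0.05, 0 by DESeq2), with a median log2 fold change of -0.02 and overlapping sums (4890 to 5576 CPM in the Caspase3 libraries against 4631 to 5810 CPM in the GFP libraries). Of 15 pan-neuronal markers none was called (2 lower at an unadjusted p under 0.05, 1 by DESeq2), and 12 were negative (median -0.11). All 14 striatal projection neuron markers were negative (median -1.26) with none called, 10 of them lower at an unadjusted p under 0.05 and 1 by DESeq2. DESeq2 gave no adjusted p for Drd2, Adora2a and Gpr6 of this list, and they are counted as not called. Summed CPM of the 14 markers was 528 to 572 in the Caspase3 libraries, 717 and 617 in GFP replicates 1 and 2, and 2031 in GFP replicate 3. Among glial and vascular lists, 1 of 11 astrocyte markers rose (median 0.10). None of 10 oligodendrocyte markers (median 0.32, 3 higher at an unadjusted p under 0.05, 0 by DESeq2) or of 12 endothelial and mural markers (median 0.04, 1 higher at an unadjusted p under 0.05, 0 by DESeq2) was called. No marker of these lists was at 0 in all libraries. The part of these cell types in the member values was not tested.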

How the data were processed

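Raw read counts per gene, with Ensembl identifiers, coordinates and gene lengths, and FPKM values were deposited by the authors for the 6 libraries. The submitters' processing notes list the tools HISAT2, featureCounts and DESeq2 and the build names GRCm38 and mm10, without roles or versions. The kit labels the second cDNA strand, per the labels' protocols. Each deposited FPKM was its count over gene length, times 1 constant per library. Gene length includes untranslated exons, so the order of levels depends on the annotation.

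The test across all genes used edgeR 4.0.16 under R 4.3.3: filterByExpr, TMM, then glmQLFit and glmQLFTest with group as the only term. A gene with Benjamini-Hochberg adjusted p under 0.05 was called. CPM used TMM-scaled totals, and the SE is the absolute log2 fold change divided by the square root of F. The fit was tested on simulated counts with 200 changed genes. It recovered 35.1% of 1.5-fold, 81.1% of 2-fold and 92.9% of 4-fold changes, and 4.26% of its calls were on unchanged genes. The simulated spread followed the trend over all genes and not each gene's own spread. A member that was not called may therefore still differ by a small fold. Alternatives were other scalings and filters, DESeq2 1.42.0, limma 3.58.1 (voom, and log2 of FPKM plus 0.1 or 1), robust dispersions, the sample number as a block and omitted libraries. The pan-neuronal scaling was added after the data were seen.

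The members and lists were chosen with earlier results of these data known. Full values are given for called members, those with an unadjusted p under 0.05 and the highest member of each family, and, per list of other channels, the gene with the highest mean CPM. Exons, shared 50-base words and coding sequences were read from GENCODE M21. The planned comparison of protein sequences was not made.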

Additional observations from a re-analysis of the deposited data

How the results depend on the processing

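Kcns3 kept its direction under all alternatives run, and the count of members called lower (1) became 3 with DESeq2 (Kcna5, Kcnd2 and Kcns3), 2 without the filter on low counts (Kcna5 and Kcns3), and 0 to 1 when 1 library was left out. The count of members called higher (0) became 1 (Kcng1) without Caspase3 replicate 1 and GFP replicate 3 together, where Kcnh7 and not Kcns3 was called lower, and ranged from 0 to 1 when 1 library was left out. Over all genes, the count called lower (19) was 103 with DESeq2, 10 with limma on log2(FPKM + 1), 250 without the filter, 77 without both of those libraries, 40 at adjusted p under 0.1, 9 with the pan-neuronal scaling, and 2 to 33 when 1 library was left out. The count called higher (255) was 402 with DESeq2, 160 with limma on log2(FPKM + 1), 663 without the filter, and 15 to 252 when 1 library was left out, the lowest without GFP replicate 2. All calls (274) numbered 505, 170 and 913 in the first 3 of those settings and 17 to 285 when 1 library was left out. Auxiliary subunits and other potassium channels called lower (0) numbered 1 with DESeq2, 4 without the filter and 1 at adjusted p under 0.1. Deviations from the group mean correlated at 0.0648, 0.178 and 0.0273 between same-numbered libraries, and at -0.142 to 0.0794 between different-numbered ones. Caspase3 replicates 2 and 3 correlated best with the GFP library of their own number, and Caspase3 replicate 1 with GFP replicate 3 (0.0794). With the sample number as a replicate block, all calls numbered 421, calls lower 43, auxiliary subunits and other channels called lower 1, and Kcns3 stood at -1.74 (adjusted p = 0.0242). Small log2 fold changes turned sign with the pan-neuronal scaling: Kcnf1 to 0.0244, Kcnh1 to 0.118, Kcnq5 to 0.0165, Kcna6 to 0.129, Kcnd3 to 0.171, Kcnh5 to 0.0733, Kcns2 to 0.0905, Kcnh2 to 0.0687, Kcns1 to 0.182 and Kcnh8 to 0.199. With library totals, Kcnd3, Kcns1 and Kcnh8 were at 0.0341, 0.0391 and 0.0315. Without both libraries named above, Kcnd3, Kcnh2, Kcnh4 and Kcng3 were at 0.0737, 0.116, 0.207 and 0.0704. When 1 library was left out, Kcnd3 ranged from -0.15 to 0.17, Kcna4 from -0.0399 to 0.11, Kcnh2 from -0.29 to 0.0173, Kcnh4 from -0.55 to 0.0263, Kcns1 from -0.13 to 0.0688 and Kcnh8 from -0.26 to 0.23. Where the construction does not show it, the cause was not tested. Depth limits Kcns3, Kcng2, Kcnh8, Kcnq1 and Kcnv2, which rest on few counts.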
